A study of Homo sapiens with 6 samples.

Results

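The genes described here are the replication-dependent histone genes, chosen as the rows of the deposited count table whose gene name begins with HIST1H, HIST2H, HIST3H or HIST4H. The rule took 75 of the 33451 genes in the table, 65 annotated as protein-coding and 10 annotated as pseudogenes under names that the rule keeps, such as HIST1H1PS1 and HIST2H2BC. Each member was placed by its name in a histone type (H1, H2A, H2B, H3 or H4) and in a cluster. HIST1 lies on chromosome 6, HIST2 and HIST3 lie on chromosome 1, and HIST4, with 1 gene, lies on chromosome 12.

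H2A, H2B, H3 and H4 form the protein core around which DNA is wound in the nucleosome, and H1 binds the linker DNA between nucleosomes. The genes in these clusters supply most of the histone protein that is packed onto newly made DNA, and their transcription and mRNA stability are highest in S phase. Their mRNAs differ from other mRNAs in that they carry no introns as a rule and usually end just past a short stem-loop in place of a poly(A) tail. The stem-loop is bound by SLBP, the stem-loop binding protein, and the U7 small nuclear ribonucleoprotein directs the cut behind it. Some of these genes also give longer, polyadenylated transcripts.

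The cells were MDA-MB-453, an established human breast cancer line, and every library came from the parental line after 5 days in culture. Control cells received the solvent, alcohol, and the treated cells received 100 nM 25(OH)D (25-hydroxyvitamin D, the vitamin D metabolite measured in blood), with 3 libraries in each group. The comparison asks which genes changed in the presence of 25(OH)D. The libraries held 33268860 to 40928176 counts, and mitochondrial genes took 7.85% to 7.99% of the counts in control and 8.89% to 9.24% in 25(OH)D. All 10 markers of the line, among them KRT8 and ERBB2, passed the low-count filter. Summed markers of leukocytes were at 4.52 to 6.05 CPM (counts scaled to a common library size with TMM factors) in control and at 13.5 to 19.5 CPM in 25(OH)D, of which CD68 gave nearly all, while PTPRC, CD3E and CD14 were near 0 in both groups. Summed endothelial markers were at 0.104 to 0.489 CPM, and summed fibroblast markers at 32.0 to 39.0 CPM, nearly all of it COL1A1.

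The stem-loop was searched for in the GENCODE 29 transcripts as the consensus of the histone mRNA stem-loop, on the transcribed strand. The stem-loop had 16 bases with any base allowed at 3 positions, and both arms of 6 bases had to pair, G with T allowed. It was found in 33 of the 75 members, in 5 forms, and in 39 of the 57133 genes of the annotation (0.068%). One member is shown for each form, because the arms and the loop are what these mRNAs share. Positions are those of the capitals on GRCh38, and the capitals mark the stem-loop with 5 bases on either side in lower case.
HIST1H2AC, chr6:26124669-26124684, + strand: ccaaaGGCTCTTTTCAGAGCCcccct
HIST1H2BD, chr6:26158587-26158602, + strand: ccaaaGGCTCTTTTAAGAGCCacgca
HIST1H4H, chr6:26285131-26285146, - strand: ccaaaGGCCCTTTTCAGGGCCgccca
HIST1H4I, chr6:27139654-27139669, + strand: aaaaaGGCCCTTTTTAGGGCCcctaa
HIST1H2AG, chr6:27133515-27133530, + strand: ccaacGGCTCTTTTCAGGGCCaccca
The form of HIST1H2AC was shared by 18 members of types H2A, H2B and H3, and the forms of HIST1H4H and HIST1H4I were carried by H4 genes, 4 and 3 of them. The form of HIST1H2BD was found in 5 members. That of HIST1H2AG, which pairs only with G to T allowed, was found in 3, the pseudogenes HIST2H2BC and HIST2H2BD among them. The other 42 members had no such letters within their annotated transcripts, many of which stop at the stop codon.

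Many replication-dependent histone genes were higher in the cells cultured with 25(OH)D, and no member was called lower. Of the 75 members, 50 passed the low-count filter (about 10 counts, or 0.271 CPM, in at least 3 libraries), and 21 of these were higher at an adjusted p under 0.05 by the quasi-likelihood test of edgeR, with p-values adjusted by Benjamini-Hochberg over 18183 genes. Among all genes tested 17.3% were called higher and 16.5% lower. The 21 called members rose by 0.32 to 1.13 on the log2 scale, with a median of 0.80. Over the 50 tested members the median log2 fold change was 0.47 with quartiles of 0.18 and 0.83, against -0.011 with quartiles of -0.23 and 0.22 over all genes. The fold change was positive for 45 members and negative for 5. At an unadjusted p under 0.05 edgeR counted 27 members higher and 0 lower, and DESeq2 counted 26 and 0. In bulk samples, a change in the share of cells that carry an RNA and a change in the amount per cell cannot be told apart. The share of mitochondrial counts and the CD68 level moved with the groups as well, and their part in these differences was not tested.

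Every 25(OH)D library lay above every control library for 26 of the 50 tested members, which included all 21 that were called, and for 22.8% of all genes tested. No tested member had all its 25(OH)D libraries below the controls, and the groups overlapped for 24. The 5 members that were separated without being called were HIST1H2BF, HIST1H2BH, HIST1H2AG, HIST1H2AJ and the pseudogene HIST2H2BD. At the limits the study draws, an absolute log2 fold change over 1 with an unadjusted p under 0.05, 4.02% of all genes tested and 3 members were higher. These were HIST1H2AI, HIST2H2AA3 and HIST1H2BC. The other 18 called members rose by less than 1 on the log2 scale.

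**Figure D1:**
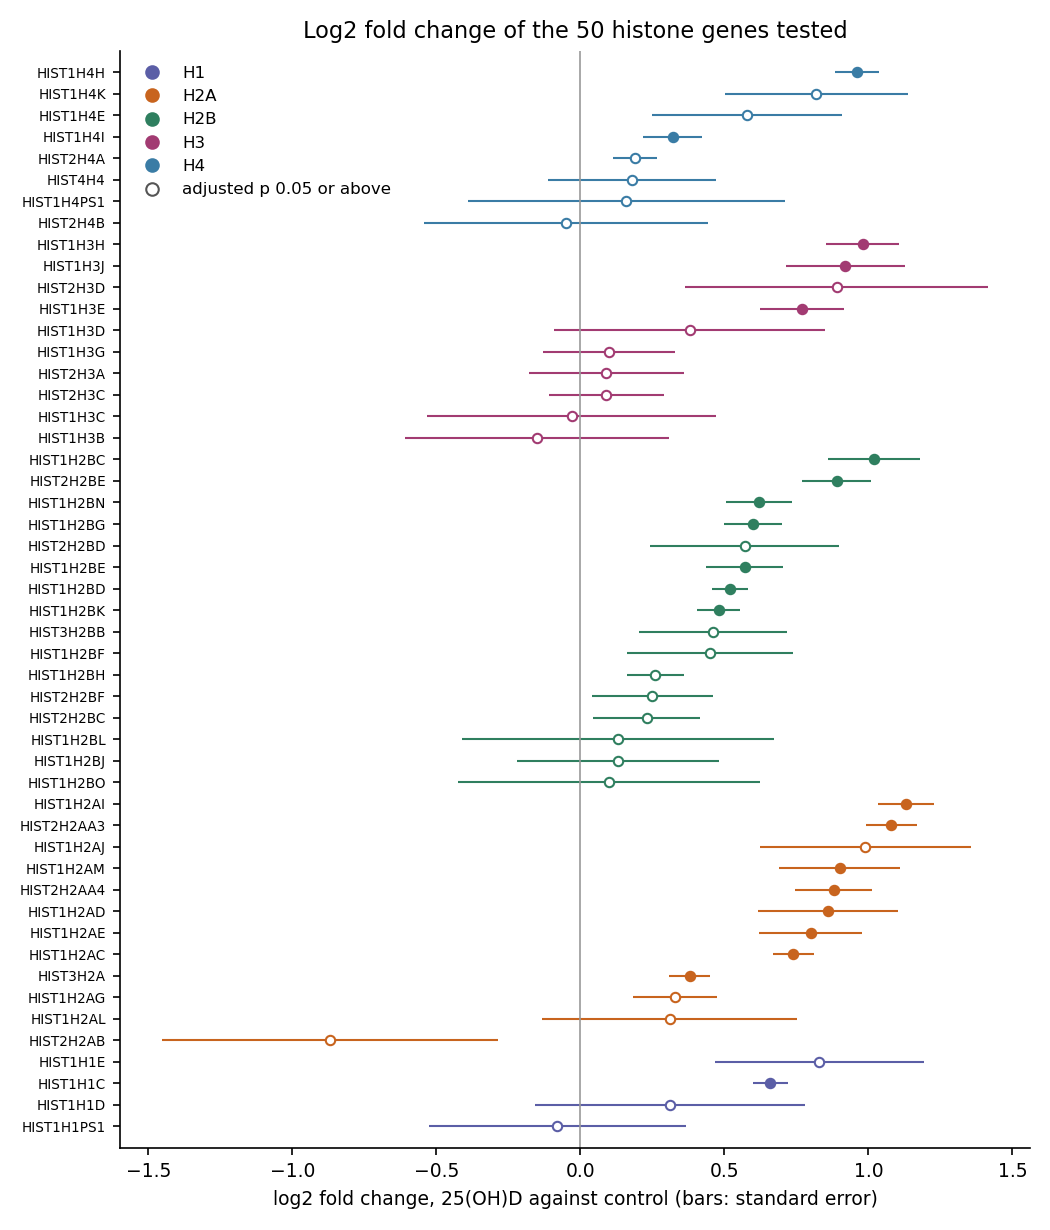
Log2 fold change of 25(OH)D against control (x axis) for the 50 tested members, with bars for 1 standard error, 3 libraries per group, coloured by histone type. Filled points had an adjusted p under 0.05 (21 members, all to the right of 0), and open points did not (29 members, 5 of them to the left of 0).

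The other 25 members did not pass the filter. Their highest count in any library was 21, and 19 of them were protein-coding. They included HIST1H4C, HIST1H1B, HIST2H2AC and HIST1H3A, whose counts lay between 0 and 14, so that no change could be detected at this depth. The filter did not admit the called members through the treated group alone, since all 3 control libraries were above its limit for each of the 21 and for 41 of the 50. Among the protein-coding members the calls went with depth. Of the 23 with a mean of at least 100 counts 20 were called. Of the 42 with a lower mean 23 were tested and 1, HIST1H2AD, was called. The 17.3% called higher among all genes tested covers every depth that passed the filter, and no share at a like depth stands beside these counts.

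Summed over the 75 members, the level was 426, 401 and 394 CPM in the control libraries and 627, 637 and 562 CPM in the 25(OH)D libraries. The means were 407 ± 17 and 608 ± 40.7 CPM (SD, n = 3 each), a ratio of 1.49. The groups did not overlap. The members took 0.0397% to 0.0434% of all counts in control and 0.0550% to 0.0632% in 25(OH)D. Few genes carried most of these counts, since 1 member, HIST3H2A, held 23.8% of them and the 8 members with the most counts held 74.3%.

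In the 5 histone types the ratio lay between 1.43 and 1.57. The summed level of H1 genes went from 49.1 ± 2.21 to 77.1 ± 4.88 CPM, a ratio of 1.57. H2A genes went from 186 ± 8.55 to 283 ± 26.5 CPM, a ratio of 1.52. H2B genes went from 101 ± 4.71 to 144 ± 4.44 CPM, a ratio of 1.43. In none of these 3 types did the groups overlap. H3 genes went from 17.7 ± 0.804 to 27.1 ± 2.48 CPM, a ratio of 1.53, and H4 genes from 53.4 ± 1.27 to 77.6 ± 2.59 CPM, a ratio of 1.45, again without overlap. A single gene gave 96.8% of the H1 counts (HIST1H1C) and 51.4% of the H2A counts (HIST3H2A), and HIST1H4H gave 39.7% of the H4 counts. Without the member with the most counts the log2 ratio went from 0.65 to 0.42 for H1, from 0.60 to 0.85 for H2A, from 0.61 to 0.48 for H3 and from 0.54 to 0.27 for H4, and it was 0.52 for H2B with and without it.

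By cluster, the HIST1 sum was 239 ± 9.44 CPM in control and 376 ± 23 CPM in 25(OH)D, a ratio of 1.57. The HIST2 sum was 60.6 ± 0.884 and 93.5 ± 4.44 CPM, a ratio of 1.54, or 0.62 on the log2 scale, which became 0.41 without HIST2H2AA3. The HIST3 sum was 106 ± 8.58 and 138 ± 14.2 CPM, a ratio of 1.30, and HIST3H2A gave 98.3% of its counts. In all 3 clusters the 25(OH)D libraries lay above the controls. HIST4H4, the only gene of HIST4, was at 1.35 ± 0.347 and 1.52 ± 0.467 CPM with overlapping groups, a log2 fold change of 0.18 (SE 0.291) that did not pass the test.

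**Figure D2:**
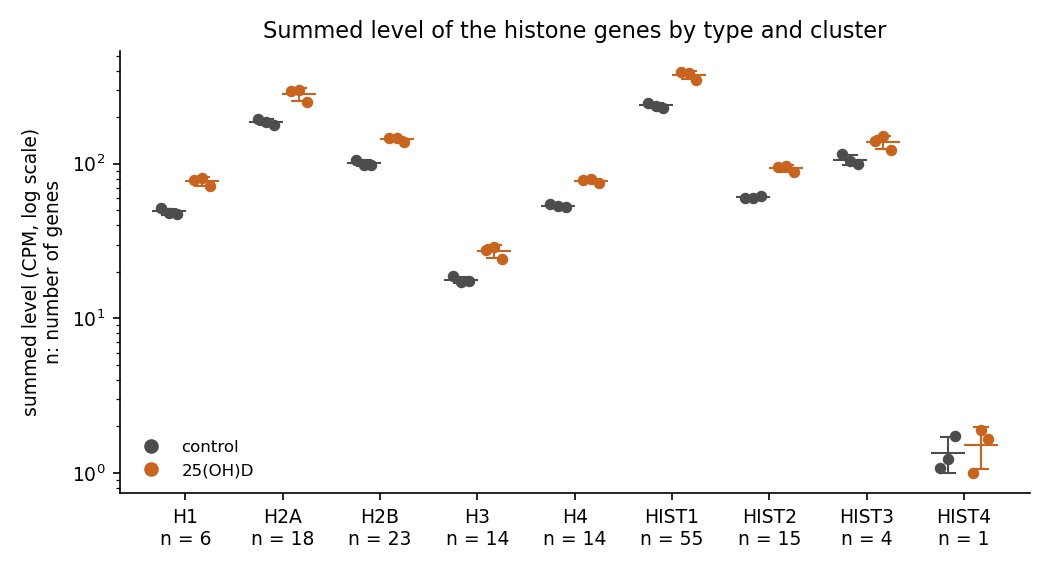
Summed level in CPM (y axis, log scale) of the members of each histone type and of each cluster, with a point for each of 3 control and 3 25(OH)D libraries and the mean ± SD. The 25(OH)D points lie above all control points in every column except HIST4, whose groups overlap.

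Among the protein-coding genes, 17 of the 33 tested HIST1 members were called higher. The cluster falls in 2 blocks, of 30 members at chr6:26020490-26285638 and of 20 members at chr6:27125897-27893843, with 840 kb between them. Of the first block 19 were tested and 10 called, with a median log2 fold change of 0.58. Of the second 14 were tested and 7 called, with a median of 0.55. In HIST2 10 were tested and 3 called, with a median of 0.22, and in HIST3 2 were tested and 1 called. The share over all genes tested was 17.3%. The called members thus lay in both blocks and in 3 clusters on 2 chromosomes. The HIST3 call rests on 1 gene, however, and those in HIST2 include the near-identical copies HIST2H2AA3 and HIST2H2AA4.

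Of the clustered linker histone genes, HIST1H1C, which encodes H1.2, was the one expressed at a high level. Its level was 79.1, 74.2 and 71.2 RPKM (reads scaled to gene length and library total) in control and 117, 121 and 106 RPKM in 25(OH)D. The groups were far apart. It rose by 0.66 on the log2 scale (SE 0.0594, adjusted p = 7.95e-07, edgeR's quasi-likelihood test). HIST1H1D and HIST1H1E were tested and not called, at a mean of 0.699 and 1.08 RPKM over all libraries, although HIST1H1E was called higher without 25(OH)D replicate 1. The pseudogene HIST1H1PS1 had a log2 fold change of -0.08 (SE 0.447) with overlapping groups.

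H2A genes had the most calls, 8 of 12 tested, against 17.3% called higher among all genes tested. They also had the largest median log2 fold change among the types, 0.83. HIST3H2A, from the small cluster on the long arm of chromosome 1, had the highest level of any member. It stood at 129, 116 and 110.0 RPKM in control and at 152, 164 and 131 RPKM in 25(OH)D. All treated libraries were above the controls, although the lowest of them passed the highest control library only narrowly. Its rise of 0.38 (SE 0.0713, adjusted p = 0.00086) was, after that of HIST1H4I, the smallest of the called members.

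HIST1H2AC was at 24.3, 23.2 and 22.8 RPKM in control and at 41.7, 38.2 and 33.8 RPKM in 25(OH)D. It rose by 0.74 (SE 0.0705, adjusted p = 1.45e-06), with the groups well separated. HIST1H2AI was at 17, 14.8 and 13.8 RPKM in control and at 32.8, 33.7 and 30.3 RPKM in 25(OH)D. The treated libraries lay far above the controls. This was the largest rise among the members, 1.13 (SE 0.0980, adjusted p = 5.63e-07). Of the 100-base stretches of HIST1H2AI 57.7% are found in other genes, most often in HIST1H2AJ. HIST1H2AJ was far lower and was not called (log2 fold change 0.99, SE 0.367, adjusted p = 0.053), although limma called it higher. The sum of HIST1H2AI and HIST1H2AJ was 7.92 ± 0.791 CPM in control and 17.3 ± 0.840 CPM in 25(OH)D, a ratio of 2.18.

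HIST2H2AA3 and HIST2H2AA4 encode the same H2A protein from opposite strands of a duplicated stretch of chromosome 1, and reads on them can hardly be told apart. Of their 100-base stretches 100.0% and 96.8% are found in other genes, most often in each other. HIST2H2AA3 was at 26.7, 30.7 and 33.3 RPKM in control and at 65.3, 64.1 and 56.2 RPKM in 25(OH)D. HIST2H2AA4 was at 11.9, 16.1 and 10.8 RPKM in control and at 22.9, 25.3 and 20.9 RPKM in 25(OH)D. Neither had overlapping groups. The rises were 1.08 (SE 0.0882, adjusted p = 3.12e-07) and 0.88 (SE 0.134, adjusted p = 0.000138). Their sum, which does not depend on how the counting divided them, went from 23.5 ± 2.32 to 47.7 ± 3.57 CPM, a ratio of 2.03.

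HIST1H2AE, HIST1H2AD and HIST1H2AM were also higher, with log2 fold changes of 0.80, 0.86 and 0.90. HIST1H2AD lies almost wholly inside the exons of another annotated gene on the same strand, RP1-34B20.21, and its call was lost without control replicate 1 (adjusted p = 0.0521) or without 25(OH)D replicate 2 (adjusted p = 0.0769). HIST2H2AB was the H2A gene with a negative value, -0.87 (SE 0.584, adjusted p = 0.282). Its libraries held 2 to 20 counts, and its groups overlapped.

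**Figure D3:**
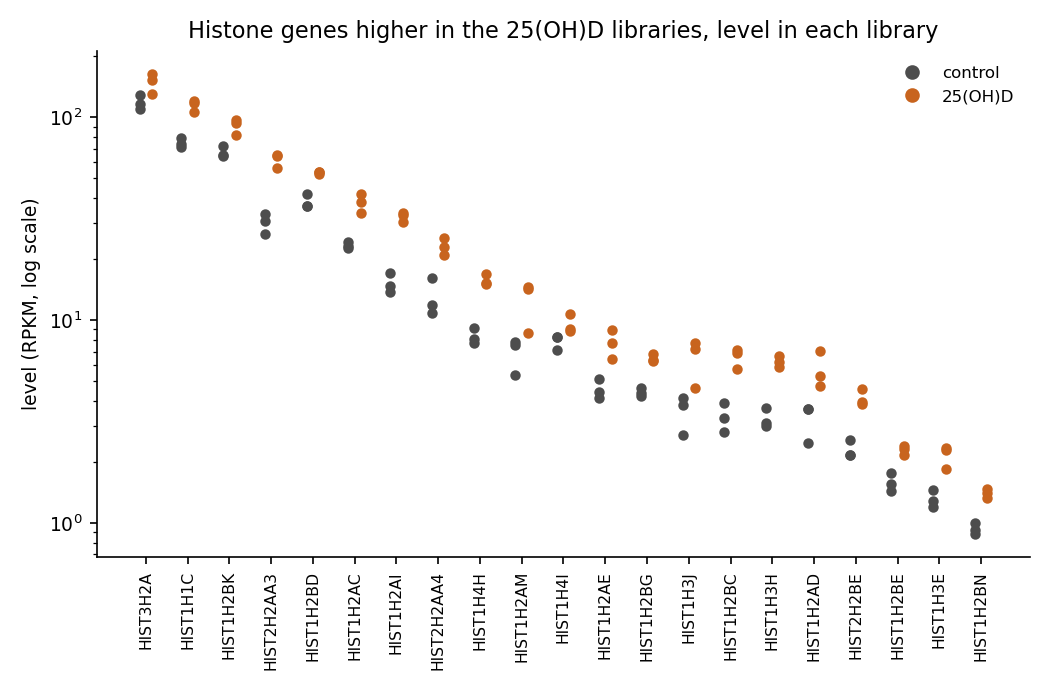
Level in RPKM (y axis, log scale) of the 21 called members in each of 3 control (grey) and 3 25(OH)D (orange) libraries, ordered from left to right by mean level. HIST3H2A stands highest and HIST1H2BN lowest, and for each gene the orange points lie above the grey ones.

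Of the H2B genes 7 of 14 tested were higher, against 17.3% of all genes tested, and all 14 had positive values. HIST1H2BK, the H2B gene with the highest level, was at 72.2, 65.4 and 64.1 RPKM in control and at 94.2, 97.0 and 81.9 RPKM in 25(OH)D. It rose by 0.48 (SE 0.0752, adjusted p = 0.000172), and its groups did not overlap. Of its 100-base stretches 28.4% are found in other genes, most often in H2BFS, which was not tested. HIST1H2BD was at 41.8, 36.6 and 36.5 RPKM in control and at 53.9, 53.5 and 52.6 RPKM in 25(OH)D. The treated libraries agreed closely with each other and lay clear of the controls, with a rise of 0.52 (SE 0.0636, adjusted p = 1.71e-05).

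HIST1H2BC, HIST1H2BE, HIST1H2BF, HIST1H2BG and HIST1H2BI encode an identical H2B protein, and these 5 genes did not all give a call. HIST1H2BC was at 3.90, 2.81 and 3.29 RPKM in control and at 5.76, 7.11 and 6.85 RPKM in 25(OH)D, a rise of 1.02 (SE 0.161, adjusted p = 0.000187). HIST1H2BG was at 4.63, 4.23 and 4.38 RPKM in control and at 6.26, 6.78 and 6.37 RPKM in 25(OH)D, a rise of 0.60 (SE 0.0998, adjusted p = 0.00032). For both genes every treated library exceeded every control library. HIST1H2BE was also higher (0.57, SE 0.133, adjusted p = 0.00408). Of its 2585 exon bases 730 are also exon of RP1-221C16.8 on the opposite strand, and whether counting used strand is not stated. HIST1H2BF had a value of 0.45 (SE 0.288, adjusted p = 0.258), and HIST1H2BI was not tested.

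HIST2H2BE, which lies outside the chromosome 6 cluster, was at 2.16, 2.55 and 2.17 RPKM in control and at 3.85, 3.96 and 4.58 RPKM in 25(OH)D. It rose by 0.89 (SE 0.121, adjusted p = 4.95e-05) without overlap between the groups. HIST1H2BN rose by 0.62 (SE 0.114, adjusted p = 0.000665). HIST1H2BH missed the limit with a value of 0.26 (SE 0.0985, adjusted p = 0.053), although its treated libraries lay above the controls, and it was called higher with the size factors of DESeq2 or without 25(OH)D replicate 3.

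H3 genes were at lower levels, none of them above a mean of 5.04 RPKM. The HIST1 genes of this type encode H3.1, and 3 of the 7 tested were higher, against 17.3% of all genes tested. The HIST2 genes encode H3.2, and none of the 3 tested was called. HIST1H3H was at 3.67, 3.0 and 3.1 RPKM in control and at 6.20, 5.90 and 6.68 RPKM in 25(OH)D. It rose by 0.98 (SE 0.127, adjusted p = 3.23e-05), with a wide gap between the groups. HIST1H3E rose by 0.77 (SE 0.147, adjusted p = 0.000938). HIST1H3J rose by 0.92 (SE 0.207, adjusted p = 0.00311), but 346 of its exon bases are also annotated as exon of HIST1H2AM on the same strand, and the counts of these neighbours differed by at most 11 in any library. HIST1H2AM has 88.0% of its exon bases in this overlap, so the calls of HIST1H3J and HIST1H2AM rest on largely the same reads. They are counted under H3 and under H2A all the same, in the calls and in the sums, and do not stand as separate results. HIST1H3B had a value of -0.15 (SE 0.458, adjusted p = 0.831).

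HIST2H3A and HIST2H3C encode H3.2 and are duplicated in the same stretch as HIST2H2AA3 and HIST2H2AA4. Summed, they stood at 3.86 ± 0.610 CPM in control and 4.11 ± 0.702 CPM in 25(OH)D with overlapping groups. HIST2H4A and HIST2H4B, also duplicated there, summed to 21.9 ± 1.85 and 24.9 ± 1.12 CPM, also with overlap. The difference between these pairs and the H2A pair was not tested.

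Nearly all H4 genes encode the same protein. HIST1H4H had the smallest p of all members. It was at 8.11, 9.18 and 7.70 RPKM in control and at 15.2, 16.8 and 15.1 RPKM in 25(OH)D, so that the lowest treated library exceeded the highest control by more than the whole range of either group. It rose by 0.96 (SE 0.0768, adjusted p = 2.43e-07). HIST1H4I rose by 0.32 (SE 0.104, adjusted p = 0.0303), and this call was lost without control replicate 3 (adjusted p = 0.101) or 25(OH)D replicate 1 (adjusted p = 0.139), with upper-quartile factors (0.0554), with library sizes alone (0.0595) and by limma (0.0746). HIST2H4A, the other H4 gene of similar level, had a value of 0.19 (SE 0.0762, adjusted p = 0.0726) and was called higher without control replicate 1 or without 25(OH)D replicate 3, and HIST2H4B had one of -0.05 (SE 0.494, adjusted p = 0.957). The remaining 3 tested protein-coding H4 genes were not called, and 6 were not tested.

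The annotated transcripts that hold the stem-loop differed in how far they run past it. They ended at least 100 bases past it for 22 protein-coding members and less than 100 bases past it for 8. For 35 no transcript held a stem-loop. Transcripts of the same gene that lack the stem-loop were not measured. HIST1H2BD was thus placed in the short class at 39 bases. It has 2 transcripts, however, and its exons reach chr6:26171349, far past its stem-loop at chr6:26158587-26158602. Of the 22 long models 15 carried AATAAA or ATTAAA in their last 50 bases, 1 of which stands there in 44.2% of coding transcripts. HIST2H2BE ran 1729 bases, HIST1H4H 1655 bases and HIST1H2AC 1128 bases past the stem-loop, and HIST2H2AA3 ran 35. The median level was 1.95 RPKM for the long models, 12.1 RPKM for the short ones and 0.699 RPKM for those without a stem-loop. Calls were made for 10 of 22, 5 of 6 and 6 of 18 tested genes of these classes. The share called higher over all genes tested was 17.3%. The short class counts both near-identical copies HIST2H2AA3 and HIST2H2AA4, and also HIST1H2BD. Median log2 fold changes of the classes were 0.41, 0.84 and 0.57. Members of each class were thus among those that rose, and the classes were not compared by a test. The tables give reads per gene, so reads from transcripts that end at the stem-loop and from longer ones cannot be separated, and how mRNA was selected for the libraries is not given in the sources used here.

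**Figure D4:**
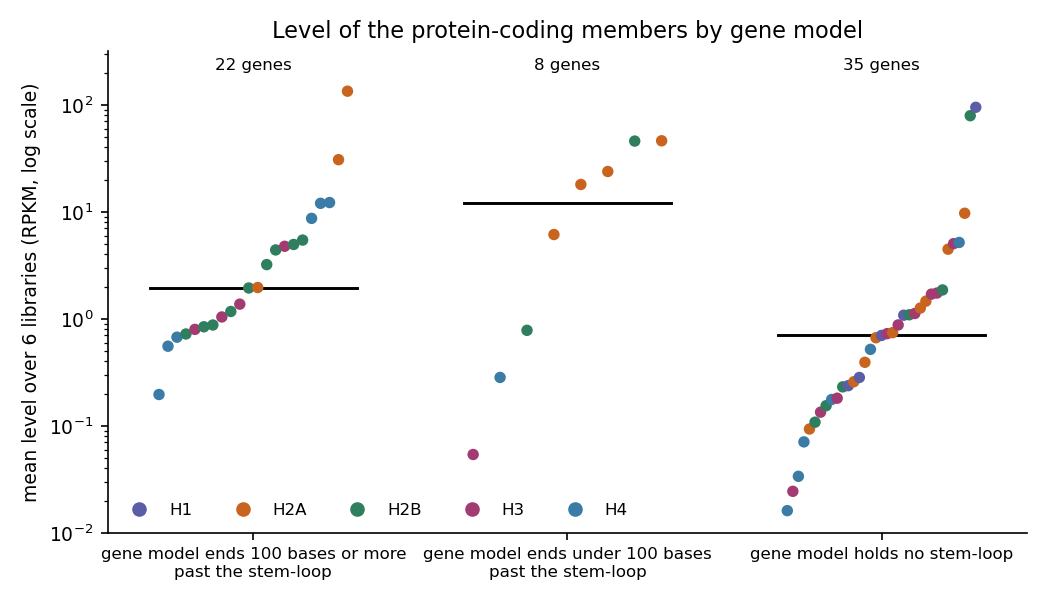
Mean level over the 6 libraries in RPKM (y axis, log scale) of the 65 protein-coding members, a point each, coloured by histone type. Members are grouped by how far the transcript that holds the stem-loop runs past it, with a line at each median (1.95, 12.1 and 0.699 RPKM). The levels of the classes overlap widely, and the lowest ones lie among models that hold no stem-loop.

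Many H2A and H2B genes lie head to head and share the DNA between their starts. RefSeq promoters, 250 bases before to 50 bases after the start, were matched for 56 members and searched on both strands for the octamer ATTTGCAT, the site known to be bound by POU2F1 and its relatives. The octamer was present in 13 of 17 H2B and 10 of 13 H2A promoters, in 1 of 10 H3 promoters and in 0 of 11 H4 and 0 of 5 H1 promoters, and in 1.77% of all 35116 promoters. It fell at 16 positions, 7 of them shared by the promoters of an H2A and an H2B gene. The octamers of 3 such pairs are shown because a single stretch, read on opposite strands, lies in the promoters of 2 members. Capitals mark the octamer, written 5′ to 3′ on the strand of the named gene, with positions on GRCh38.p14.
HIST1H2BC, octamer at chr6:26124042-26124049: ttcatacctcATTTGCATagctctgccc
HIST1H2AC, the same octamer: gggcagagctATGCAAATgaggtatgaa
HIST1H2BG, octamer at chr6:26216729-26216736: tgaattctttATTTGCATgaaaggccta
HIST1H2AE, the same octamer: taggcctttcATGCAAATaaagaattca
HIST1H2BO, octamer at chr6:27893276-27893283: cttcctcttaATGCAAATgagctttctg
HIST1H2AM, the same octamer: cagaaagctcATTTGCATtaagaggaag
For the pairs HIST1H2BC with HIST1H2AC and HIST1H2BG with HIST1H2AE both genes were called higher, with log2 fold changes of 1.02 and 0.74 and of 0.60 and 0.80. For the pair HIST1H2BO with HIST1H2AM the first had a value of 0.10 (SE 0.524, adjusted p = 0.906) at 6 to 24 counts per library, and the second was called at 0.90. Over the 7 shared octamers, all genes were called at 2, some at 3 and none at 2. Genes not tested were counted here as not called, namely HIST2H2AC beside HIST2H2BE and HIST1H2BM beside HIST1H2AJ. Tested H2A genes with an octamer in the promoter were called in 4 of 8 cases, and those without one in 2 of 2. For tested H2B genes these were 5 of 10 and 2 of 4. The share called higher over all genes tested was 17.3%. HIST2H2AA3 and HIST2H2AA4, both called, had no matched promoter and stand in neither group. POU2F1 itself was not called (log2 fold change -0.01, SE 0.0719, adjusted p = 0.940). CCAAT was present in all matched H1, H2A, H2B and H3 promoters and in 2 of 11 H4 promoters, against 34.61% of all promoters.

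None of the histone genes outside the clusters, which mostly give polyadenylated mRNA through the whole cell cycle, was called higher. Of 14 tested variant genes 6 were lower and 0 higher (adjusted p under 0.05), against 16.5% and 17.3% of all genes tested. The median log2 fold change of the 14 was -0.30. At an unadjusted p under 0.05 edgeR and DESeq2 both counted 0 higher. H2AFZ, which encodes H2A.Z, was at 154, 160.0 and 161 CPM in control and at 123, 126 and 116 CPM in 25(OH)D. It fell by 0.38 on the log2 scale (SE 0.0437, adjusted p = 9.94e-06). H2AFX, whose product marks DNA breaks once phosphorylated, was at 49.4, 48.2 and 46.1 CPM in control and at 37.4, 35.8 and 33.2 CPM in 25(OH)D. It fell by 0.43 (SE 0.0612, adjusted p = 7.02e-05). Neither gene had overlapping groups.

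H3F3B and H3F3A both encode H3.3, the variant placed on DNA outside replication. H3F3B fell by 0.46 (SE 0.0496, adjusted p = 5.33e-06), from 252 ± 13.6 to 184 ± 10.1 CPM. H3F3A fell by 0.17 (SE 0.0499, adjusted p = 0.0145), a call that was lost without control replicate 2 (adjusted p = 0.0717), 25(OH)D replicate 2 (0.0652) or 25(OH)D replicate 3 (0.0785). H2AFY, which encodes macroH2A1, had a value of 0.08 (SE 0.0434, adjusted p = 0.166), and was called without 25(OH)D replicate 3 (adjusted p = 0.0454).

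**Figure D5:**
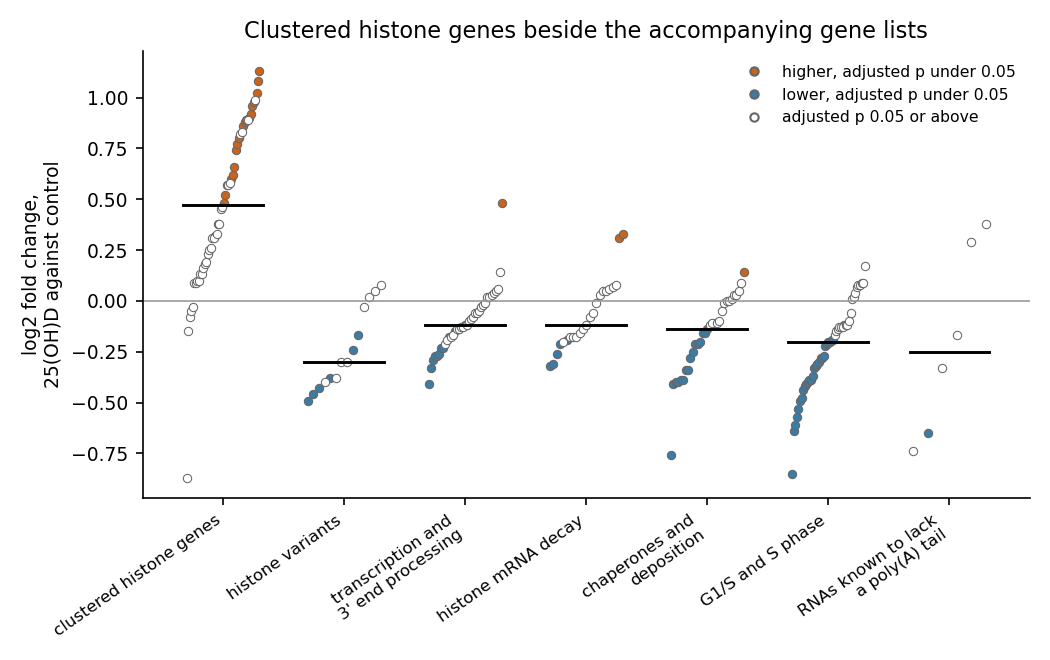
Log2 fold change of 25(OH)D against control (y axis) of each tested gene among the clustered histone genes and the 6 accompanying lists, with a line at each median and colour for an adjusted p under 0.05. The clustered histone genes have a median of 0.47, and the medians of the 6 lists lie between -0.30 and -0.12.

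Of 37 tested genes that transcribe histone genes or process their pre-mRNA, 1 was higher, 11 were lower and 25 were not called. The shares over all genes tested were 17.3% higher and 16.5% lower. The median of the 37 was -0.12. NPAT, the coactivator at histone loci that acts downstream of cyclin E, was at 13.9 ± 0.971 CPM in control and 12.7 ± 0.529 CPM in 25(OH)D (log2 fold change -0.14, SE 0.0866, adjusted p = 0.258). CASP8AP2, which encodes the processing factor FLASH, had a value of -0.06 (SE 0.0467, adjusted p = 0.405). Both had overlapping groups.

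SLBP was at 154, 101 and 91.3 CPM in control and at 100.0, 116 and 140.0 CPM in 25(OH)D, a scattered set of values with a log2 fold change of 0.04 (SE 0.155, adjusted p = 0.876). Its sign turned under other scalings (-0.00186 with upper-quartile factors and -0.00638 with library sizes alone), and without control replicate 1 it was called higher (0.31, adjusted p = 0.0266). LSM10 and LSM11 encode the proteins particular to the U7 particle. LSM10 was the 1 gene of the list called higher, by 0.48 (SE 0.171, adjusted p = 0.0437), and the call was lost without control replicate 2 (adjusted p = 0.155), control replicate 3 (0.0772), 25(OH)D replicate 1 (0.153) or 25(OH)D replicate 2 (0.0769), with upper-quartile factors (0.0619), with library sizes alone (0.0635) and by limma (0.0610). LSM11 had a value of -0.13 (SE 0.254, adjusted p = 0.730), and RNU7-1, the U7 RNA itself, one of 0.38 (SE 0.332, adjusted p = 0.423). ZNF473, a further U7-linked factor, had a value of -0.14 (SE 0.113, adjusted p = 0.364). SSRP1, a subunit of the FACT histone chaperone, fell by 0.41 (SE 0.0367, adjusted p = 6.69e-07).

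Of 23 tested genes of histone mRNA decay 2 were higher and 5 lower, against 17.3% and 16.5% of all genes tested. The median of the 23 was -0.12. ZCCHC6, a terminal uridylyltransferase, rose by 0.33 (SE 0.0462, adjusted p = 5.93e-05) and XRN1, the cytoplasmic 5′ to 3′ exonuclease, rose by 0.31 (SE 0.0588, adjusted p = 0.000847). ERI1, the exonuclease that trims the stem-loop end, fell by 0.31 (SE 0.0799, adjusted p = 0.00779), and EXOSC10, of the nuclear exosome, fell by 0.32 (SE 0.0466, adjusted p = 8.28e-05).

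Of 31 tested histone chaperones and deposition factors 17 were lower and 1 was higher, against 16.5% and 17.3% of all genes tested. The median of the 31 was -0.14. HJURP, the chaperone of the centromeric histone CENPA, was at 85.3, 90.9 and 93.3 CPM in control and at 51.7, 52.9 and 54.3 CPM in 25(OH)D. It fell by 0.76 (SE 0.0511, adjusted p = 3.58e-08) with the groups far apart. CENPA itself fell by 0.49 (SE 0.0858, adjusted p = 0.00043). NASP, which carries newly made H3 and H4, fell by 0.21 (SE 0.0360, adjusted p = 0.000465). SPTY2D1, a chaperone of H3 and H4, rose by 0.14 (SE 0.0352, adjusted p = 0.00563), a call that was lost with upper-quartile factors (adjusted p = 0.0511).

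Genes of the G1/S transition and S phase, the time when the clustered genes are normally transcribed, were counted in the same way. Of 47 tested 28 were lower and 0 higher, against 16.5% and 17.3% of all genes tested, and the median of the 47 was -0.20. At an unadjusted p under 0.05 edgeR counted 0 higher and DESeq2 counted 1. PCNA, the clamp of DNA polymerase, was at 75, 72.6 and 81.8 CPM in control and at 63.6, 64.4 and 55.6 CPM in 25(OH)D, and fell by 0.32 (SE 0.0646, adjusted p = 0.00136). UHRF1 fell by 0.41 (SE 0.0395, adjusted p = 1.79e-06). CCNE2, a cyclin gene of the G1/S transition, was at 41.9 ± 0.865 CPM in control and 38.3 ± 0.271 CPM in 25(OH)D. It missed the limit (-0.13, SE 0.0541, adjusted p = 0.0819), but was lower with library sizes alone (adjusted p = 0.0229) and with upper-quartile factors (adjusted p = 0.0259). CLSPN had a value of 0.09 (SE 0.0439, adjusted p = 0.129). Whether the direction of the clustered genes differed from that of this list was not tested.

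RNAs that are known to lack a poly(A) tail, apart from the histone mRNAs, gave few counts. Of 29 in the list 6 were tested, 0 were higher and 1 lower, with a median of -0.25, and at an unadjusted p under 0.05 edgeR and DESeq2 both counted 0 higher. RN7SL1, the RNA of the signal recognition particle, was at 5.43, 8.30 and 11.4 CPM in control and at 5.12, 6.01 and 4.79 CPM in 25(OH)D, so that its groups overlapped. It fell by 0.65 (SE 0.208, adjusted p = 0.0263), and the call was lost without control replicate 2 (adjusted p = 0.0705), control replicate 3 (0.155), 25(OH)D replicate 1 (0.0828) or 25(OH)D replicate 3 (0.0746). None of the tested RNAs of this list was called in the direction of the clustered histone genes. Among all genes tested 17.3% were called higher and 16.5% lower, so counts over 6 RNAs cannot set this list apart.

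Between 20 and 23 members were higher under each of 13 other settings, and at least 20 of the 21 were among them each time. All 21 kept a positive fold change, and under each of these settings 0 members had a negative fold change at an unadjusted p under 0.05. Leaving out members with exon bases in common with another gene, or with more than 50% of their 100-base stretches found elsewhere, left 30 tested and 13 higher.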

How the data were processed

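Sequenced mRNA of MDA-MB-453 cells, in 6 libraries, was grouped by the sample labels. The authors deposited a table of unnormalized counts, in whole reads for each gene, and a table of RPKM values, in which the counts were scaled by gene length and library total. Every deposited RPKM value equalled that quotient (largest relative difference 5.14e-15). The submitters' processing notes name GRCh38, Trimmomatic 0.36, featureCounts of Subread 1.5.1 and edgeR 3.12.1, and the aligner and annotation release are not given in the sources used here. The kit is described as stranded, and whether counting used strand is not stated. Counts of 2 were held by 2318 to 2722 genes per library and counts of 1 by 939 to 1321, so a count is not 1 independent fragment. The paper speaks of biological replicates, and no label ties a library to a separate culture, so p-values measure the spread between these libraries.

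The test was the quasi-likelihood test of edgeR 4.0.16 in R 4.3.3 on the counts, with TMM factors, filterByExpr with a minimum count of 10 and no covariates, and with Benjamini-Hochberg adjustment over 18183 genes. It was tested on simulated data. Alternatives were other scalings, no filter, DESeq2 1.42.0, limma 3.58.1 on log2(RPKM + 1), the replicate number as a block and the omission of each library. Replicates of a group differed by more than sampling noise, so none were counted as duplicates. The biological coefficient of variation was 0.0788. Sums over members are descriptions without a test, since an exact permutation test of 3 against 3 libraries cannot give a p below 0.1. Summaries and figures used Python 3.11.15 with pandas 2.3.3, numpy 2.4.6 and matplotlib 3.10.9.

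The members, the 6 accompanying gene lists and the tests were chosen with earlier results of these data known. Names were given to members with an adjusted p under 0.05 and an average count of 50 or more in the higher group, to the 8 members with the highest RPKM, to the member of each type and of each list with the smallest p in each direction, and to 12 histone-related genes. Values per library were given for the 12 called members with the smallest p and for the 8 highest. Other genes named, such as CENPA, NASP, XRN1, ERI1 and POU2F1, were chosen after their values were seen. Some marker genes are not reported here by name. Stem-loops and exon positions came from GENCODE 29 and the deposited exon positions, and promoters from RefSeq on GRCh38.p14.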

Additional observations from a re-analysis of the deposited data

How the results depend on the processing

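Of 86 recomputed counts of called genes 81 stayed within 1.5 times the reported count, among them all 36 that left out 1 library. At the study's limits on fold change and unadjusted p, 731 genes were higher and 478 lower, and 3 members were higher. Without members that share sequence or exon bases 13 were higher. With upper-quartile factors 2 genes of the accompanying lists were higher in place of 4. Without members annotated as pseudogenes, a setting chosen after seeing the data, 21 members were higher. The all-gene median moved by at most 0.044 on the log2 scale under any scaling. Without the member with the most counts, the log2 ratio of the summed level was 0.42 for H1, 0.85 for H2A, 0.48 for H3, 0.27 for H4 and 0.41 for HIST2, and with library sizes alone it was 0.49 for H4. For HIST4 it lay between -0.02 and 0.40 when 1 library was left out, the negative value arising without 25(OH)D replicate 2.

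Among the genes named by the rule, signs turned for 5 that were not called. When 1 library was left out, log2 fold changes lay between -0.24 and 0.17 for HIST1H1PS1, -0.73 and 0.23 for HIST1H3B, -0.27 and 0.34 for HIST2H4B, -0.33 and 0.08 for LSM11, and -0.10 and 0.31 for SLBP. SLBP was also at -0.00186 with upper-quartile factors and at -0.00638 with library sizes alone. Other members that were not called also changed sign when 1 library was left out, among them HIST4H4, HIST1H2BO and HIST2H3A, as did POU2F1. Calls were gained by HIST1H4K (no low-count filter, DESeq2, the replicate block and without control replicate 3), HIST2H3D (without control replicate 3) and HIST2H2BD (limma), beside those named in the text. The cause was not tested. With limma on log2(RPKM + 1), HIST1H4I (adjusted p = 0.0746), LSM10 (0.0610) and RN7SL1 (0.0983) were not called, and CCNE2 was (0.0184). HIST1H4I was also lost with upper-quartile factors (0.0554) and library sizes alone (0.0595), as was LSM10 (0.0619 and 0.0635).

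The replicate numbers did not pair the libraries. Deviations of same-numbered libraries from their group means correlated at -0.0721, -0.012 and -0.046 over 18183 genes, none of them positive. With the replicate block 22 members were higher, 21 of them shared with the fit without it. Depth limits the 25 untested members, and a floor of 3 counts was worth 0.0720 to 0.0921 CPM.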
